A study of Mus musculus with 2 samples.

Results

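The nephron segment genes are 38 mouse genes whose RNA is characteristic of the podocytes and tubule segments of the kidney. They were taken by symbol from a list chosen with earlier results of these data known. They are 38 of the 55536 annotated genes of the deposited gene tables. Grouped by segment, 15 belong to the proximal tubule, 4 to the thick ascending limb, 4 to the distal convoluted and connecting tubule, 5 to principal cells, 3 to intercalated cells and 1 to podocytes, and 6 are used in several segments. They were read in total RNA-seq of the adrenal gland of female B6CASTF1/J mice, F1 hybrids of C57BL/6J and CAST/EiJ parents, at 10 days of age. The series has 1 untreated group of 2 libraries, replicate 1 and replicate 2, each from 300 ng of RNA. The labels of the tissue samples name a different female for each, but both libraries carry the same female and cDNA number in their descriptions and share 1 donor entry, so whether they come from separate animals is unclear. The comparison asked which kidney segments are represented in the RNA of these adrenal samples, and how much that differs between the libraries.

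The nephron filters blood at the glomerulus, where podocytes hold the filter, and then recovers salts, sugars, amino acids and water along a tubule whose segments each use their own transporters. The proximal tubule takes back most solutes, the thick ascending limb and distal convoluted tubule reabsorb salt, and the collecting duct adjusts water, sodium and acid through principal and intercalated cells. The adrenal gland lies on the upper pole of the kidney and is built from a steroid-producing cortex and a medulla of chromaffin cells.

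Replicates 1 and 2 held 35636846 and 33378436 expected counts, and 14948 and 14684 genes reached 1 TPM (TPM is a level per transcript length, scaled to a fixed total). The adrenal label was met in both libraries: the 7 genes of the steroid-producing cortex summed to 3838 and 4141 TPM, and the 6 chromaffin genes to 1061 and 1026 TPM, with 0 of these 13 genes called different. Genes of liver and muscle differed too, with 8 of 8 hepatocyte and 6 of 7 muscle genes called higher in replicate 1 and 1 muscle gene, Myh4, higher in replicate 2. The 8 hepatocyte genes summed to 5125 TPM in replicate 1 and 975 TPM in replicate 2, and the 7 skeletal muscle genes to 3223 and 1060 TPM. Their part in the results was not tested.

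Most nephron segment genes had few counts in replicate 1, and all had counts above the limit of detection in replicate 2. Their summed TPM was 13.6 in replicate 1 and 539 in replicate 2, which is 0.00136% and 0.0539% of all TPM and a ratio of 39.7. In replicate 1, 8 members had 0 counts, 9 had 1 to 3 counts, 9 had 4 to 10 and 12 had more than 10. The limit of detection is taken as the 3 counts that a count of 0 allows. In replicate 2, 11 members were at 10 TPM or more, 24 at 1 to 10 TPM and 3 below 1 TPM. The deposited credibility intervals of TPM did not overlap between the libraries for 37 of the 38 members. How often they fail to overlap over all genes is not given here. The intervals overlapped for Slc26a4, at 0.871 to 1.96 TPM in replicate 1 and 1.93 to 3.32 TPM in replicate 2. For some members the replicate 1 interval does not contain the TPM given here, as for Cdh16 at 0.04 TPM against 0.37 to 1.17 TPM. In bulk tissue, fewer cells of a type and less RNA per cell cannot be told apart.

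**Figure D1:**
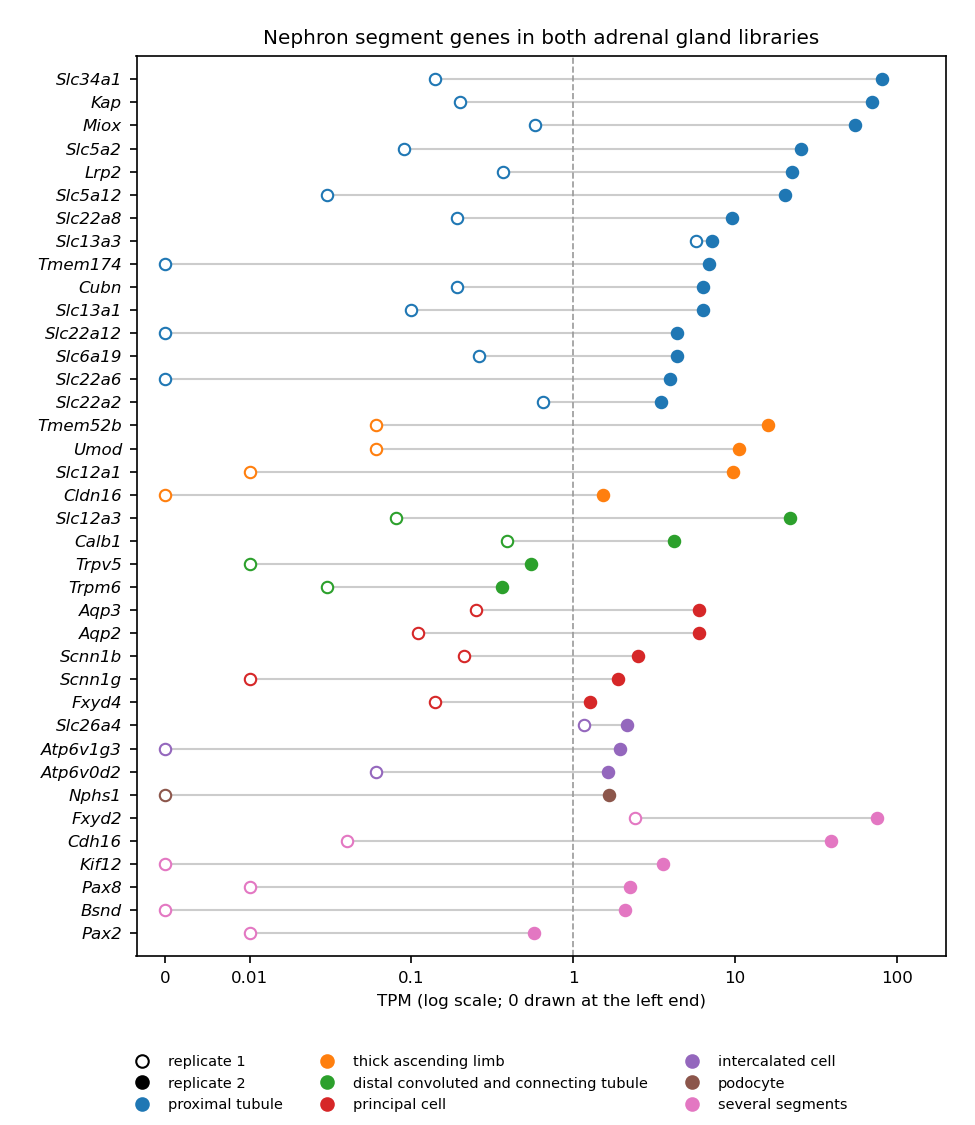
TPM of each of the 38 nephron segment genes in replicate 1 and replicate 2, grouped by segment, on a logarithmic axis with 0 drawn at the left end. Open points are replicate 1, filled points replicate 2, grey lines join the values of a gene, and the dashed line is at 1 TPM. Replicate 2 lies above replicate 1 for all 38 genes, from Slc34a1 at 0.14 and 80.82 TPM to Slc13a3 at 5.75 and 7.21 TPM.

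All 38 members had the summed count of 20 needed for an exact two-sided binomial test on rounded expected counts, and 37 were called higher in replicate 2. A call required a Benjamini-Hochberg adjusted p of at most 0.05 over 18883 genes and at least a 2-fold difference. No member was called higher in replicate 1, and 1 member was not called. Over all genes compared, 2.75% were called higher in replicate 2 and 4.05% higher in replicate 1. Because the members were chosen with earlier results of these data known, setting them against all genes is a description and no test. The median log2 ratio of replicate 2 over replicate 1 was 6.82 for the members, or 6.00 with genes at 0 counts set to the limit, against 0.00 for all genes. The test compares these 2 libraries and covers counting error only, so it has no replicate check. Folds below are scaled with TMM and carry 95% Clopper-Pearson intervals, and a fold against 0 counts is given as a lower bound against 3 counts. The lower end of the 95% interval is smaller than that bound, as for Slc22a6 at 145 against 179.

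**Figure D2:**
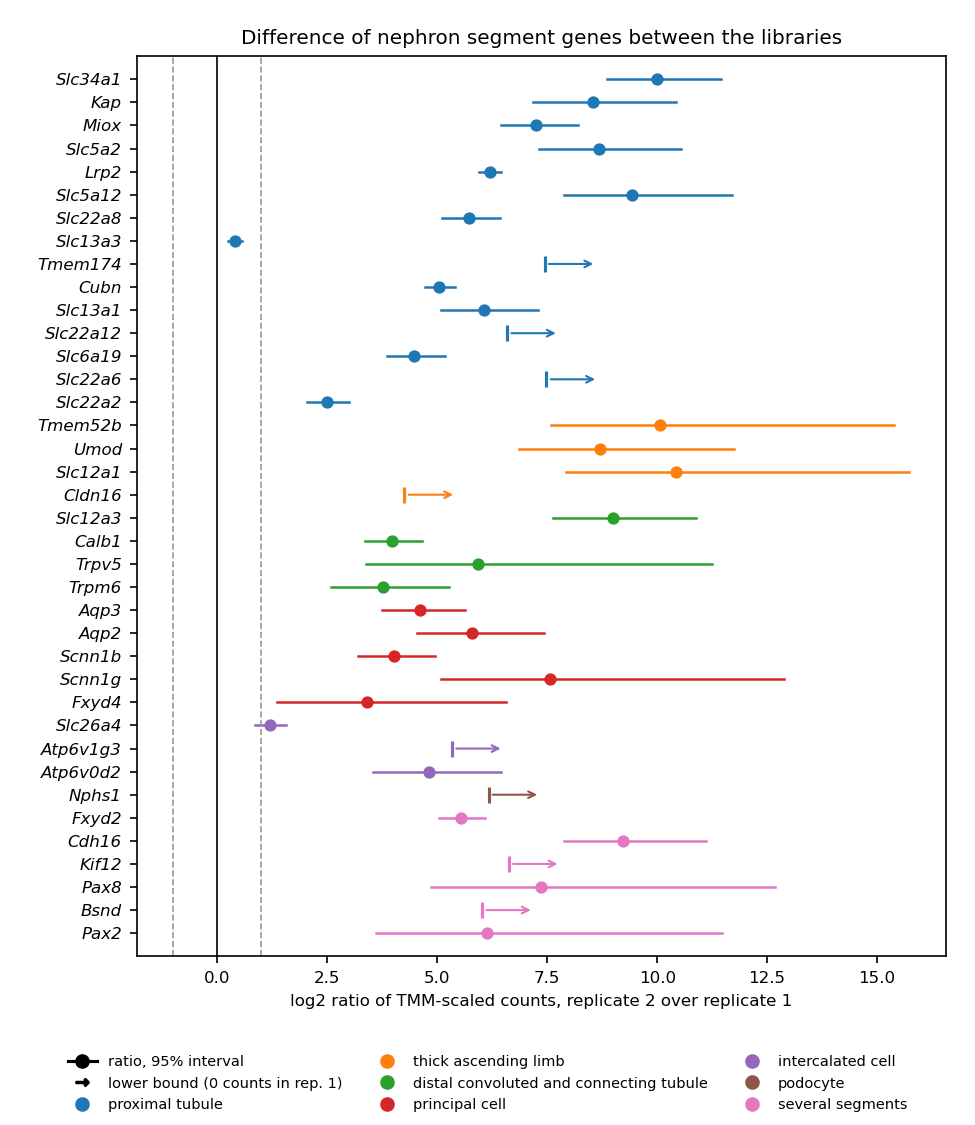
Log2 ratio of replicate 2 over replicate 1 for each member, by segment, with 95% intervals of counting error; arrows start at the lower bound of genes with 0 counts in replicate 1, and dashed lines mark 2-fold. Of the 38 genes, 37 lie beyond 2-fold toward replicate 2, and the remaining gene, Slc13a3, has a ratio of 1.33.

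Promoter sequences are shown for members that differed together, to let the start regions of the leading genes be compared. Windows of 300 bases, 250 before to 50 after the RefSeq start (GRCm38.p6), were found for 29 of the 38 members, as 31 windows. In 23 of these, the first or last 15 transcribed bases occur in an annotated transcript of the gene on the same strand. All 31 windows were searched on both strands for GTTAAT and for CAAAGTC, a core of the HNF4 motif. They were also searched for AAGGTCA, a core of the motif of estrogen-related receptors. The letters GTTAAT or their complement stood in 6 member windows, 19.4% of them, against 7.1% of all 32851 windows in the table. CAAAGTC stood in 1 member window, 3.2% against 4.4% of all, and AAGGTCA in 0, against 4.7% of all. A match describes letters only, and the shares carry no test. The windows below were picked after the matches were seen: 3 proximal transporters and the thick ascending limb gene Umod with a match, and the proximal gene Kap without one. They read 5′ to 3′ on the gene's strand, and capitals mark a match on either strand.

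Slc34a1, chr13:55399398-55399697, plus strand: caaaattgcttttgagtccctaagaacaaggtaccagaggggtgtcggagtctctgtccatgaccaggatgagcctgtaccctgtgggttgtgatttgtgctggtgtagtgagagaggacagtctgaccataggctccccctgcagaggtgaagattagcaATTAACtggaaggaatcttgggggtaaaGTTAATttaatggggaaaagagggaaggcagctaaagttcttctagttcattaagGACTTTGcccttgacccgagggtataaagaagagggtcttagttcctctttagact

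Slc22a8, chr19:8592932-8593231, plus strand: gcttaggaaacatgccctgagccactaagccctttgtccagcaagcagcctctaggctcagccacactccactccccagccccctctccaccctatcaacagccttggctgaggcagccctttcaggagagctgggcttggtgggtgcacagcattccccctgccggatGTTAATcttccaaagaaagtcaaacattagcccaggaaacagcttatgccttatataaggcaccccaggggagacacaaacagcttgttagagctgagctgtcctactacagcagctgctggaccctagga

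Slc22a6, chr19:8617746-8618045, plus strand: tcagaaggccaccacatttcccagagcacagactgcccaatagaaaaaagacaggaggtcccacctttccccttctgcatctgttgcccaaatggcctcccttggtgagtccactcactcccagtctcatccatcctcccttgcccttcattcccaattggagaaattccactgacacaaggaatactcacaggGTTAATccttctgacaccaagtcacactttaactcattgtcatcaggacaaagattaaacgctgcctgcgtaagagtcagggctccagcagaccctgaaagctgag

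Umod, chr7:119479213-119479512, minus strand: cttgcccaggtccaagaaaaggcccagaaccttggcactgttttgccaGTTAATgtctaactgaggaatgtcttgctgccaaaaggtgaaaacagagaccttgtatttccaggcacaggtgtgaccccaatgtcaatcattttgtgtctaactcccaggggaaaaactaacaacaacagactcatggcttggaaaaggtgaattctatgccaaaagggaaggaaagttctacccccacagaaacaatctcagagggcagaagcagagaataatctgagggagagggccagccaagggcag

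Kap, chr6:133853618-133853917, minus strand: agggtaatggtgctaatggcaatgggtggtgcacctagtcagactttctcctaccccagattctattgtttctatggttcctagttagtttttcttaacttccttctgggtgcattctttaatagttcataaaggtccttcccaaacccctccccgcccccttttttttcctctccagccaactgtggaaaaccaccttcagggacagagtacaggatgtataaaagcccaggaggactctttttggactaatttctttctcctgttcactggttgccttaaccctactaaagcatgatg

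Slc34a1 held 3 matches: GTTAAT on the minus strand with its first base at position -89 from the start, GTTAAT on the plus strand at -61, and CAAAGTC on the minus strand at -6. Slc22a8 held GTTAAT at -81, Slc22a6 at -56 and Umod at -202, all on the gene's strand. The other matches to GTTAAT were in Miox at -142 and in Atp6v1g3 at -194.

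Proximal tubule genes gave 60.5% of the members' TPM in replicate 2. That share depends on how many genes stand for each segment. Slc34a1, the sodium-phosphate cotransporter of the brush border (chr13:55398187-55415592, mm10), had the highest TPM of the members in the first quantification. In the other it stood at 115 TPM, below Fxyd2 at 166 and Kap at 122 TPM. Slc34a1 had 6 counts and 0.14 TPM in replicate 1 and 5450 counts and 80.82 TPM in replicate 2, a 1018-fold difference (468 to 2780). Its level in replicate 2 ranked 666 among 21938 protein-coding genes.

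Slc5a2, the sodium-glucose cotransporter of the early proximal tubule (chr7:128265657-128272430), was at 0.09 TPM in replicate 1 and 25.53 TPM in replicate 2. With 4 and 1459 counts it was 409-fold higher in replicate 2 (159 to 1500). Slc5a12, a sodium-coupled lactate transporter (chr2:110597298-110647779), was at 0.03 and 20.24 TPM, with 3 and 1844 counts and a ratio of 689 (235 to 3340). For both genes nearly all RNA was in replicate 2. Slc13a1, which carries sulfate, had 8 and 480 counts, 0.10 and 6.34 TPM, and a ratio of 67.3 (33.9 to 157). The other quantification gave Slc13a1 38 counts in replicate 1 and a ratio of 15.5 (11.1 to 22.1), below that interval. Slc6a19, which carries neutral amino acids, had 22 and 438 counts, 0.26 and 4.35 TPM, and a ratio of 22.3 (14.6 to 36.0).

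Slc13a3, a transporter of dicarboxylates (chr2:165405028-165473230), was the exception. It had 623 counts and 5.75 TPM in replicate 1 and 738 counts and 7.21 TPM in replicate 2. Its ratio of 1.33 (1.19 to 1.48) passed the adjusted p of the exact binomial test, at 1.73e-06, but not the 2-fold limit. Slc13a3 alone made up 42.3% of the members' TPM in replicate 1.

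The organic ion transporters of the Slc22 family, which move anions, urate and cations across the proximal cell, differed in their residual level. Slc22a6 had 0 and 479 counts, 0 and 3.94 TPM, and was at least 179-fold higher in replicate 2. Slc22a8, its neighbour on chromosome 19, had 21 and 993 counts, 0.19 and 9.54 TPM, and a ratio of 53.0 (34.5 to 86.0). That ratio sets different transcripts against each other. In replicate 1 the level was assigned to Slc22a8-202, at 0.19 TPM, which was at 0 TPM in replicate 2. Slc22a8-201, at 9.49 TPM in replicate 2, was at 0 TPM in replicate 1 in both quantifications, as was Slc22a6-201. Slc22a12, a urate transporter, had 0 and 258 counts, 0 and 4.37 TPM, and was at least 96.4-fold higher. By contrast, Slc22a2, an organic cation transporter, had 45 and 227 counts, 0.65 and 3.48 TPM, and a ratio of 5.66 (4.09 to 7.97). Of the called proximal members it had the smallest ratio.

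Lrp2 and Cubn encode megalin and cubilin, the paired receptors for uptake of filtered protein. Lrp2 (chr2:69424340-69586065) had 143 counts and 0.37 TPM in replicate 1 and 9333 counts and 22.29 TPM in replicate 2, a ratio of 73.2 (62.0 to 86.9). Cubn had 72 and 2127 counts, 0.19 and 6.36 TPM, and a ratio of 33.1 (26.2 to 42.5). Both receptors were called, and both also kept more than 10 counts in replicate 1.

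Kap, the kidney androgen-regulated protein, had 4 counts and 0.20 TPM in replicate 1 and 1327 counts and 70.16 TPM in replicate 2, a ratio of 372 (145 to 1370). Miox, the oxygenase that opens the inositol ring, had 12 and 1636 counts, 0.58 and 54.81 TPM, and a ratio of 153 (87.3 to 296). Tmem174, a transmembrane protein, had 0 and 466 counts, 0 and 6.92 TPM, and was at least 174-fold higher. In replicate 2 the deposited credibility intervals of Kap (65.3 to 72.8 TPM) and of Fxyd2 (71.3 to 80.4 TPM) overlapped, and that of Fxyd2 overlapped that of Slc34a1 (76.7 to 82.0 TPM), so the order among these neighbours does not exceed the interval of the estimate.

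All 4 genes of the thick ascending limb were called higher in replicate 2, and each had 0 to 3 counts in replicate 1. Slc12a1, the sodium-potassium-chloride cotransporter (chr2:125152505-125230002), had 1 and 1221 counts, 0.01 and 9.70 TPM, and a ratio of 1369 (245 to 54100). Umod, which encodes uromodulin, the main protein of normal urine (chr7:119462711-119479282), had 2 and 747 counts, 0.06 and 10.51 TPM, and a ratio of 419 (116 to 3460). Umod and Slc12a1 thus stood at nearly the same TPM in replicate 2, with a ratio of 1.08 between them. Tmem52b had 1 and 959 counts, 0.06 and 15.99 TPM, and a ratio of 1075 (193 to 42500), or 585 (162 to 4836) in the other quantification. Cldn16, a claudin of the paracellular path for magnesium and calcium, had 0 and 51 counts, 0 and 1.52 TPM, and was at least 19.1-fold higher.

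The distal convoluted and connecting tubule gave 4 called genes of 4, with levels that spread widely. Slc12a3, the thiazide-sensitive sodium-chloride cotransporter (chr8:94329201-94366214), had 4 and 1825 counts, 0.08 and 21.72 TPM, and a ratio of 512 (199 to 1880). The other quantification gave Slc12a3 39 counts in replicate 1 and a ratio of 59.3 (43.3 to 83.7), below that interval. Calb1, the calcium-binding calbindin, had 23 and 324 counts, 0.39 and 4.19 TPM, and a ratio of 15.8 (10.3 to 25.3). The channels were the rarest members: Trpv5, a calcium channel, was at 0.01 and 0.55 TPM and Trpm6, a magnesium channel, at 0.03 and 0.36 TPM. Trpv5 had 1 and 54 counts, a ratio of 60.5 (10.4 to 2430), or 34.8 (9.24 to 294) in the other quantification, and Trpm6 had 6 and 73 counts, a ratio of 13.6 (5.97 to 38.4).

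Principal cell genes were all called, 5 of 5. Aqp2, the vasopressin-regulated water channel (chr15:99579055-99584547), had 5 and 247 counts, 0.11 and 5.99 TPM, and a ratio of 55.4 (23.4 to 172). Aqp3, the water channel of the basolateral side, had 11 and 241 counts, 0.25 and 6.01 TPM, and a ratio of 24.6 (13.5 to 49.9). The pair stood at the same TPM in replicate 2, while in the other quantification Aqp3 was at 0.738 times Aqp2. The beta and gamma subunits of the epithelial sodium channel, Scnn1b and Scnn1g, are neighbours on chromosome 7. Scnn1b had 13 and 188 counts, 0.21 and 2.52 TPM, and a ratio of 16.2 (9.25 to 31.0). Scnn1g had 1 and 170 counts, 0.01 and 1.88 TPM, and a ratio of 191 (33.8 to 7570). Fxyd4, a regulator of the sodium pump, had the fewest counts of any member, 2 and 19, with 0.14 and 1.26 TPM and a ratio of 10.7 (2.57 to 94.3).

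Intercalated cells secrete acid or base through proton pumps and anion exchangers. All 3 members were called. Atp6v1g3 and Atp6v0d2 encode subunits of the proton pump: Atp6v1g3 had 0 and 108 counts, 0 and 1.93 TPM, and was at least 40.4-fold higher in replicate 2. The other quantification gave it 4 and 82 counts and a ratio of 23.4 (8.81 to 88.0), so the bound holds in the first only. Atp6v0d2 had 5 and 125 counts, 0.06 and 1.64 TPM, and a ratio of 28.0 (11.7 to 87.8). Slc26a4, the anion exchanger pendrin, had 98 and 201 counts, 1.17 and 2.16 TPM, and a ratio of 2.30 (1.80 to 2.96), the smallest among the called members. The podocyte gene Nphs1, which encodes nephrin of the slit diaphragm, had 0 and 192 counts, 0 and 1.67 TPM, and was at least 71.8-fold higher. In the other quantification it had 5 and 211 counts and a ratio of 48.2 (20.3 to 150), below that bound.

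The 6 genes of several segments were called too. Fxyd2, the gamma subunit of the sodium pump (chr9:45399669-45410278), had 33 counts and 2.40 TPM in replicate 1 and 1367 counts and 75.59 TPM in replicate 2, a ratio of 46.4 (32.9 to 67.7). Cdh16, the kidney-specific cadherin (chr8:104601911-104624396), had 4 and 2137 counts, 0.04 and 39.26 TPM, and a ratio of 599 (234 to 2200). These are a membrane subunit and an adhesion protein of the tubule wall. Kif12, a kinesin, had 0 and 265 counts, 0 and 3.56 TPM, and was at least 99.0-fold higher. Bsnd, which encodes barttin, a subunit of kidney chloride channels, had 0 and 174 counts, 0 and 2.09 TPM, and was at least 65.0-fold higher. The paired-box transcription factors of the developing kidney were low in TPM: Pax8 had 1 and 147 counts, 0.01 and 2.23 TPM, and a ratio of 165 (29.1 to 6550), or 91.4 (24.9 to 761) in the other quantification. Pax2 had 1 and 63 counts, 0.01 and 0.57 TPM, and a ratio of 70.6 (12.2 to 2830).

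Across segments, the members' TPM in replicate 2 was divided into 60.5% proximal tubule, 22.9% several segments, 7.0% thick ascending limb, 5.0% distal convoluted and connecting tubule, 3.3% principal cell, 1.1% intercalated cell and 0.3% podocyte. The 5 genes Slc34a1, Fxyd2, Kap, Miox and Cdh16, carried 59.5% of it. Slc34a1 was at 3.17 times Slc5a2, 3.72 times Slc12a3 and 13.5 times Aqp2, and Slc12a3 was at 2.24 times Slc12a1. In replicate 1 the remainder had another make-up: Slc13a3, Fxyd2 and Slc26a4 carried 42.3%, 17.6% and 8.6% of the members' TPM and were the 3 members at 1 TPM or more in both libraries. Of the 30 members with counts in replicate 1, 27 differed by 10-fold or more and 12 by 100-fold or more, and the other 3 were Slc13a3, Slc26a4 and Slc22a2.

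**Figure D3:**
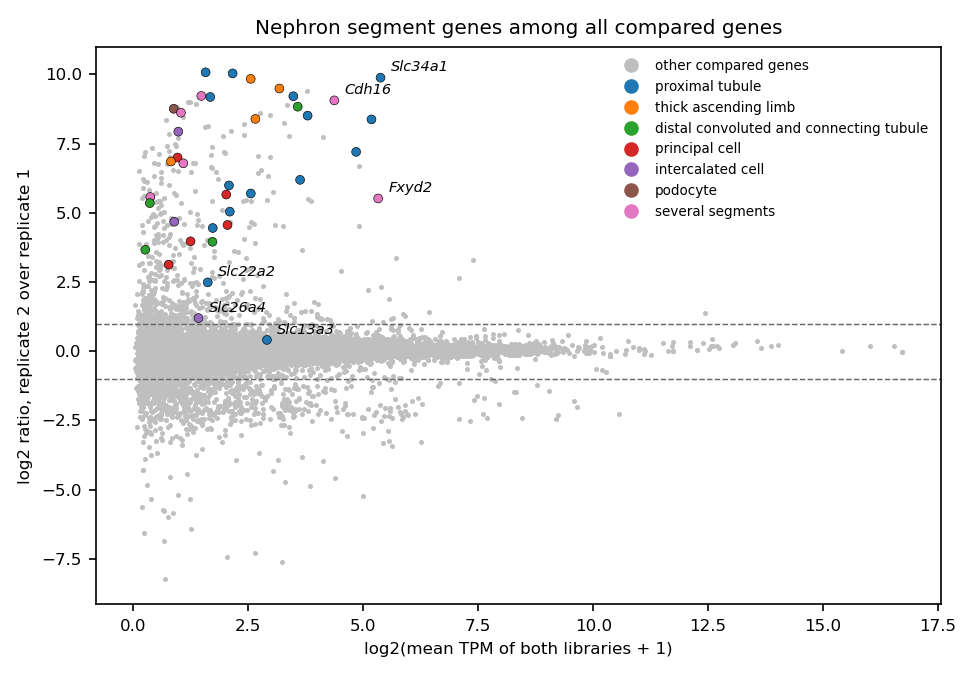
Log2 ratio of replicate 2 over replicate 1 against log2(mean TPM + 1) for all 18883 genes compared, with the 38 members coloured by segment and dashed lines at 2-fold. The members lie toward replicate 2, with a median of 6.82, and 17 of them are among the 50 called genes with the largest ratio.

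Among all genes called toward replicate 2, 215 differed by 8-fold or more, and 35 of these were members. At 32-fold or more there were 127 genes with 28 members, and at 100-fold or more 84 genes with 20 members. Called genes with 0 counts in replicate 1 have no finite ratio and are counted at each of these thresholds. They include 8 members, and not all of these are shown to reach the upper thresholds. The lower bound was 19.1 for Cldn16 and 99.0 for Kif12. Of the 30 members with counts in replicate 1, 12 differed by 100-fold or more. Further nephron genes that are no members, 85 in the 6 segment lists, were called higher in replicate 2 in 58 of the 80 compared and higher in replicate 1 in 1. These lists too were chosen with earlier results of these data known. The counts by segment follow, with no test of differences between segments.

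The 7 further distal genes were all called higher in replicate 2, summing to 2.54 and 120 TPM. S100g, a calcium-binding protein, was at 0.55 and 57.76 TPM (ratio 110), the kallikrein Klk1 at 0.15 and 32.61 TPM (ratio 242), the FGF23 co-receptor Kl at 0.08 and 11.02 TPM (ratio 139) and the potassium channel Kcnj16 at 0.15 and 10.94 TPM (ratio 90.4). Of 9 further thick ascending limb genes compared, 8 were called, among them the potassium channel Kcnj1 at 0.01 and 4.17 TPM (1 and 372 counts, ratio 417, 74.4 to 16500). Sostdc1 was at 1.68 and 5.82 TPM and Cldn10 at 0.21 and 3.84 TPM.

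Of 6 further principal cell genes compared, 5 were called. The transcription factor Tfcp2l1 was at 0.36 and 9.48 TPM, the steroid dehydrogenase Hsd11b2 at 0.82 and 8.10 TPM and the sodium channel subunit Scnn1a at 0.38 and 2.50 TPM. The water channel Aqp4, at 1.26 and 0.84 TPM, was not called. Of 12 further intercalated genes, 10 were called higher in replicate 2, among them Atp6v0a4 at 1.31 and 9.11 TPM, the ammonia transporter Rhcg at 0.30 and 6.23 TPM and Atp6v1b1 at 0.03 and 5.88 TPM. Slc4a1, the anion exchanger that red blood cells also carry, went the other way, at 21.19 and 4.39 TPM, 4.45-fold higher in replicate 1.

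Of 33 further proximal genes compared, 23 were called, all higher in replicate 2. The 4 most abundant were not among them: Pck1, of gluconeogenesis, was at 315 and 454 TPM (ratio 1.47 to 1.52), the water channel Aqp1 at 62.58 and 83.02 TPM (1.38), the bicarbonate transporter Slc4a4 at 32.86 and 62.06 TPM (1.87) and Fbp1, of gluconeogenesis, at 36.92 and 60.78 TPM (1.70). All 4 were at 32.86 TPM or more in replicate 1, where the highest member, Slc13a3, was at 5.75 TPM. Of the 13 further podocyte genes 5 were called. Podxl at 15.01 and 22.44 TPM, Clic5 at 12.89 and 14.19 TPM and Synpo at 9.97 and 11.38 TPM were not called, while the collagen gene Col4a4, at 2.29 and 6.82 TPM, was called with a ratio of 3.05.

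Transcription factors of the tubule were called higher in replicate 2 in 7 of 7. Hnf4a was at 3.91 and 8.32 TPM (ratio 2.16) and Pou3f3 at 0.01 and 1.04 TPM (88.6). Genes listed for nephron progenitors, among them the ureteric bud gene Ret, were called in neither direction, 0 of 7 compared. The list summed to 13.76 and 13.13 TPM. Meox1 was at 3.63 and 3.64, Eya1 at 3.85 and 3.27, Ret at 3.12 and 2.84 and Osr1 at 1.86 and 1.52 TPM. General epithelial genes were called higher in replicate 2 in 9 of 15 and higher in replicate 1 in 1. Cdh1, the epithelial cadherin, was at 1.36 and 5.07 TPM and Mal at 2.31 and 6.64 TPM, both called. Spint2 at 10.96 and 17.35 TPM and Prom1 at 5.42 and 6.82 TPM were not.

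**Figure D4:**
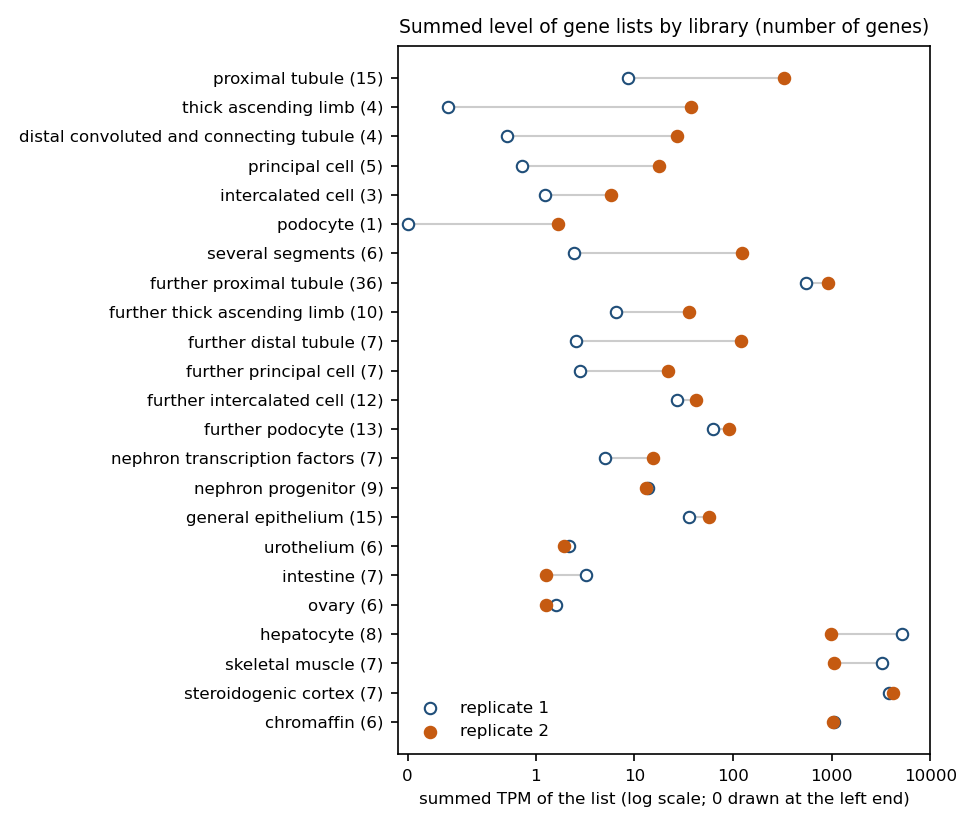
Summed TPM of each gene list in replicate 1 and replicate 2 on a logarithmic axis. The proximal members are at 8.55 and 326 TPM and the further distal genes at 2.54 and 120 TPM, while cortex and chromaffin sums lie close and hepatocyte and muscle sums are higher in replicate 1.

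Markers of other epithelia and of the ovary were low in both libraries. The 6 urothelial genes summed to 2.16 and 1.92 TPM, of which Upk1b had 1.87 and 1.64, and Upk2 had 0 counts in both libraries. The 7 intestinal genes summed to 3.20 and 1.27 TPM. Of these, Fabp2 was called higher in replicate 1 (2.47 and 0.33 TPM) and Muc2 higher in replicate 2 (0.60 and 0.88 TPM), and Sis had 0 counts in both. Calls rest on scaled counts, and the TPM of Muc2 differed by less than 2-fold. The 6 ovarian genes summed to 1.59 and 1.26 TPM, with Foxl2 at 0 counts in both.

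All 8 hepatocyte genes were called higher in replicate 1, with Alb at 2509 and 502 TPM and a ratio of 4.81 toward replicate 1. Of the 7 muscle genes 6 were, with Acta1 at 1194 and 328 TPM and a ratio of 3.50. The seventh, the myosin gene Myh4, was called higher in replicate 2, at 9.40 and 92.69 TPM and a ratio of 10.3 (9.79 to 10.8), and was named after its values were seen. Slc2a2, a glucose transporter of liver and proximal tubule, was at 5.52 and 5.39 TPM and not called. It was picked after its values were seen.

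Outside the lists, the 10 called genes with the largest ratio toward replicate 2 and a mean count of at least 100 included several expressed in kidney tubule. Dao, a D-amino acid oxidase, was at 0.04 and 8.59 TPM (ratio 443), Cltrn, which encodes collectrin, a partner of amino acid transporters, at 0.08 and 18.70 TPM (255), Tinag at 0.02 and 5.72 TPM (326) and Rdh19 at 0.03 and 5.79 TPM (182). Lrrc19, Gm44120 and Gm16010 had 0 counts in replicate 1 and 227, 230 and 227 in replicate 2. Hist1h2ao, Gm10132 and Gemin4 had 0 counts in replicate 1 and 300, 212 and 201 in replicate 2. The other quantification did not give these last 3 that difference: Hist1h2ao was at 1.19 and 1.74 TPM, Gm10132 at 3.29 and 0.676 TPM and Gemin4 at 4.78 and 3.80 TPM.

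The members' RNA in replicate 2 was mostly assigned to protein-coding transcripts. Of 166 annotated transcripts of the 38 genes, the protein-coding ones took 85.0% of the members' TPM and those with a retained intron 6.9%, against 75.7% and 11.3% in the other quantification. For Slc34a1, the transcript Slc34a1-201 had 64.25 TPM, 79.5% of the gene, and 68.1% in the other quantification. The leading transcript was the same in both quantifications for 34 genes and differed for Fxyd2, Fxyd4, Slc12a1 and Slc13a3. Fxyd2-201, protein-coding, led with 38.36 TPM in the first, while the processed transcript Fxyd2-202 led with 78.38 TPM in the other. For these 4 genes no leading transcript can be named. A transcript that led in replicate 2 could be at 0 TPM in replicate 1 although its gene had counts there. In both quantifications this held for Slc22a8-201, Slc13a1-201 and Slc6a19-201, among others.

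Member TPM in replicate 2 had a Pearson r of 0.994 on log2(TPM + 1) and a Spearman rho of 0.983 between the quantifications over 38 genes that share the same reads, as a description. The other quantification gave TPM higher by a median factor of 1.45 for the members (1.05 to 2.27) and 1.49 for all protein-coding genes at 1 TPM or more. The log2 ratio between the libraries moved by over 1.5-fold for 8 members in the other quantification, all toward smaller values: Slc22a12, Slc13a1, Tmem52b, Slc12a3, Atp6v1g3, Nphs1, Bsnd and Pax8. Slc22a12, Atp6v1g3, Nphs1 and Bsnd had 0 counts in replicate 1 in the first quantification, so the size of their shift depends on the prior count. For Slc22a12 and Bsnd the other quantification gave 1 count in replicate 1 and ratios of 303 (53.9 to 12003) and 187 (33.2 to 7445). These are above their lower bounds of 96.4 and 65.0, so no smaller ratio is shown for them. Tmem52b and Pax8 went from 1 to 2 counts in replicate 1. All 8 were also called higher in replicate 2 in the other quantification. Exons of 7 members overlap those of another gene, in 8 pairs, all on opposite strands, and strand use in the counting is not given in the sources. Slc22a12 shares 682 of its 2263 exonic bases with Nrxn2, which had 4.78 and 3.74 TPM, and Slc5a2 shares 597 of 2897 with BC017158, at 9.66 and 8.81 TPM. The part of such overlaps in the members' counts was not tested.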

How the data were processed

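Total RNA of the adrenal gland was read in 2 libraries of 1 group. Expected counts and TPM per gene, with the signal range of a TPM credibility interval and each transcript's percent of its gene's TPM, were deposited by the authors with column names as RSEM writes them. Estimated counts and TPM of another quantification were deposited by the authors with column names as kallisto writes them. Deposited notes give mm10 as assembly and M21 as annotation. Aligner and quantifier versions, strand use in counting and any treatment of CAST/EiJ variants are not given in the sources, although the kit was directional per the labels.

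All symbols were matched to the annotation, and numbered features took 1.96e-05% and 1.8e-05% of counts and stayed out. Rounded expected counts of genes whose summed count reached 20 were scaled with TMM (edgeR 4.0.16, R 4.3.3). The factors were computed on those genes after a fit on all genes had also been seen. With 1 group no contrast between groups exists, so each gene was compared between the libraries with an exact two-sided binomial test (scipy 1.17.1) and Benjamini-Hochberg adjustment. Log2 ratios used a prior count of 0.5. A count of 0 allows up to 3 counts, 0.0842 and 0.0899 CPM in replicates 1 and 2, which, like the intervals, covers counting error alone. The test was run on simulated data with known changes. It recovered all changed genes with high counts and missed some of those with low counts. A first criterion, on recovery over all counts, was not met, and the criterion was then restated for high counts after the missed genes were inspected. Promoters came from RefSeq. The genes named are all members, the 4 with the highest replicate 2 TPM in each further list (all in lists of up to 6), and the 10 unlisted genes described. Some genes that this rule names are left out here. The members and lists were chosen with earlier results of these data known. Alternatives were total count, DESeq2 1.42.0 size factors, spike-in scaling, filters, prior counts, posterior mean counts and the other quantification.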

Additional observations from a re-analysis of the deposited data

How the results depend on the processing

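The 37 calls toward replicate 2 and the 0 toward replicate 1 were found under total count, DESeq2 and spike-in scaling, no filter, posterior mean counts, a prior count of 2 and the other quantification. With a summed count of at least 100, 33 members were compared and 32 were called. Over all genes, the number compared fell from 18883 to 15058. The calls fell from 520 to 306 toward replicate 2 and from 764 to 491 toward replicate 1. The members' median log2 ratio was 5.85 in the other quantification and 5.87 with a prior count of 2, and the cause of the first was not tested. In the other quantification the log2 ratios of 8 members, with their prior count, were smaller by over 1.5-fold. The ratios of 2 of them (Slc13a1 and Slc12a3) were below their interval and of 2 (Atp6v1g3 and Nphs1) below their lower bound. For members with 0 counts in replicate 1 in the first quantification, the size of the shift depends on the prior count. Members present in both libraries numbered 5 at 0.5 TPM, 1 at 5 TPM and 6 in the other quantification, against 3. TMM factors computed on all genes, an alternative chosen after seeing the data, gave 37 calls and a Slc34a1 ratio of 1012. The members' median TPM, 2.625 over both libraries, was between 0.07 and 5.18 with a replicate left out, so it describes neither library. No paired analysis was possible because there is 1 group. Depth limits ratios of members with 0 to 3 counts in replicate 1, whose intervals are wide or open at the top.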

Other observations

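Some markers of the nephron stayed at or near the limit of 3 counts in both libraries. Slc7a13, an amino acid transporter of the late proximal tubule, had 0 and 4 counts, Slco1a1 4 and 4, Akr1c21 0 and 2, and the urea transporter Slc14a2 2 and 3. Six2, a factor of nephron progenitors, had 8 and 1. These genes were picked after their values were seen.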
